A study of Mus musculus with 38 samples.

Results

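Promoter activity of genes for cholesterol synthesis and uptake was followed in the soleus muscle of mice before, during and after fasting-induced torpor. The set comprised 7 genes, *Hmgcs1*, *Insig1*, *Idi1*, *Srebf2*, *Fdft1*, *Lss* and *Cyp51*. A gene was counted as measured where the highest peak of a CAGE cluster lay within 500 bp, on the same strand, of an annotated 5′ end of that gene in GENCODE M21. By this rule 4 of the 7 genes had 1 cluster each, which makes 4 of the 10819 clusters in the table. *Idi1*, *Lss* and *Cyp51* had none, also not elsewhere in their gene bodies, and are absent from all results.

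Cells make cholesterol from acetyl-CoA through mevalonate and isoprenoids, or take it up as lipoprotein. SREBP-2, the protein of *Srebf2*, is a transcription factor held in the endoplasmic reticulum by SCAP and the INSIG proteins when sterols are plentiful. When sterols are scarce it is cleaved and enters the nucleus, where it raises the genes of this pathway, including its own gene and that of its inhibitor INSIG1. Insulin and feeding also act on the pathway in several tissues.

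All mice were males of the C57BL/6J strain with no altered gene, and each library came from the soleus, a slow postural muscle of the lower leg, of 1 mouse. Pre mice had free access to food. Mid mice had the food removed at a low ambient temperature and were sampled during that fast, whether torpid at that moment or between bouts of torpor, and Post mice were sampled after the food was returned. HiT mice were fasted at a high ambient temperature, Fed mice kept their food at the low temperature on the day that Mid mice were fasted, and neither entered torpor. Per the study's methods the ambient temperature stayed constant through the days of an experiment, so Pre and Post also belonged to the low temperature. Pre and HiT therefore differed in both food and temperature. Dep mice were fasted at the low temperature and gently touched whenever their oxygen consumption began to drop. The deposited labels name the Fed condition as starvation and describe food in HiT, and here the description in the study's text was used. Experiment #1 had 28 libraries, 8 of Mid and 4 of each other group. Experiment #2 was an independent set of 10 libraries, 2 of Pre, 5 of Mid and 3 of Post.

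CAGE counts the capped 5′ ends of RNA, 1 tag per molecule end, so its levels do not depend on transcript length. Libraries held between 18257657 and 39176649 tags in clusters in experiment #1, and between 9359994 and 20914855 in experiment #2. Levels are given as CPM, the tag count relative to the library total after TMM scaling, with SD across mice. The 4 clusters held between 97 and 3007 tags in a library. The factors of TMM scaling ranged from 0.679 to 1.21 in experiment #1, the lowest in a HiT library. The 6 slow muscle markers summed to 8544 CPM or more in every library of experiment #1, and none of their log2 fold changes from Pre to Mid went beyond -0.16 and 0.08. In experiment #2 they summed to between 14095 and 19311 CPM. The sum of 6 fast muscle markers was 3616 to 8373 CPM in experiment #1 and 14581 to 21199 in experiment #2. The cause of this difference between the experiments was not tested. In bulk muscle, fewer cells of a type and less RNA per cell cannot be told apart.

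3 of the clusters lay at the main promoter of the gene. Positions are those of mm10. The *Insig1* cluster (chr5:28071249-28071433, plus strand) had its highest peak at 28071362, 1 bp from the 5′ end of a protein-coding transcript. The *Hmgcs1* cluster (chr13:119690290-119690518, plus strand) had its peak at 119690390, 11 bp inside the transcript. The *Srebf2* cluster (chr15:82147071-82147463, plus strand) had its peak at 82147259, 55 bp from the nearest 5′ end of a protein-coding transcript. The *Fdft1* cluster (chr14:63164542-63165104, minus strand) was of another kind. Its peak, at 63164934, was 102 bp from the 5′ end of a retained-intron transcript but 12859 bp from the nearest 5′ end of a protein-coding one. It lay in an intron of the coding transcripts, and the cluster overlapped a coding exon (chr14:63164532-63164629). Its tags therefore do not report the main *Fdft1* promoter, and they are described separately.

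The sequences below are the RefSeq promoters (GRCm38.p6, 250 bases before to 50 after the annotated start) of the 3 genes with a cluster at the main promoter, printed to show where sites known for sterol control lie. RefSeq promoters were matched for 6 of the 7 genes, *Fdft1* being the exception. Capitals mark, on either strand, the core of the sterol regulatory element, which is CACCCCA. They also mark the CCAAT box (CCAAT) and the GC box, which reads GGGCGG. The last motif marked is the E-box, with the letters CACGTG. No marked matches overlap in the 3 windows. The windows are chr13:119690101-119690400, chr5:28071162-28071461 and chr15:82147019-82147318, all on the plus strand.
Hmgcs1: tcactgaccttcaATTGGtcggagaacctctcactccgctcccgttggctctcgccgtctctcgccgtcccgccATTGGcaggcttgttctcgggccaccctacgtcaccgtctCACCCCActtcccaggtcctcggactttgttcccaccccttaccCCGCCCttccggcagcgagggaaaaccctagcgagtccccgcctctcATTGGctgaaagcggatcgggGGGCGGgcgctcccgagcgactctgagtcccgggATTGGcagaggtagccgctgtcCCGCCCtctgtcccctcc
Insig1: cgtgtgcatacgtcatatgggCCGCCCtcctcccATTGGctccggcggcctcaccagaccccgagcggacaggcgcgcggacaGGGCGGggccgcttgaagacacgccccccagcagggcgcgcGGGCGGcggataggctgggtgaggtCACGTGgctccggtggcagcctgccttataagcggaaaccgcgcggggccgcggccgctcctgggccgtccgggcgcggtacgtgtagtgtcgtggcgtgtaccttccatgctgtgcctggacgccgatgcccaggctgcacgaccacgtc
Srebf2: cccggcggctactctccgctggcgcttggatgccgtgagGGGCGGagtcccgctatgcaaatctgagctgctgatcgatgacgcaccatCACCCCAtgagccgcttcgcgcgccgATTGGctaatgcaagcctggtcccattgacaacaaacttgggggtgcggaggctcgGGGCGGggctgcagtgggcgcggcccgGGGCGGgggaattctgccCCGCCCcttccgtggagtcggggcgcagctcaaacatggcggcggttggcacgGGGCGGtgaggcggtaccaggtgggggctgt
The sterol element core occurred in *Hmgcs1*, beginning 136 bases before the start, and in *Srebf2*, 161 bases before it. It was not matched in *Insig1*, *Idi1*, *Lss* or *Cyp51*. Of all 32817 promoters of this length, 7.62% held it. *Insig1* was the gene of the 3 with an E-box, 101 bases before the start, and 7.15% of promoters held one. These distances are from the RefSeq start, which differs from the measured peaks. Relative to it the cluster peak lay at 39 bases in *Hmgcs1*, -50 in *Insig1* and -10 in *Srebf2*. CCAAT and the GC box were found in all 6 promoters, and in 37.4% and 35.6% of all promoters. SREBPs bind the sterol element and can bind E-boxes, and NF-Y binds CCAAT. A match of letters is a description of the window and not a measured binding site.

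*Insig1* was lower than in Pre in each of the 3 fasted groups of experiment #1. INSIG1 retains SCAP and SREBP in the endoplasmic reticulum. Its level was 25.9, 24.9, 17.1 and 19.8 CPM in the 4 Pre libraries, and ranged from 10.7 to 14 (median 11.6) in the 8 Mid libraries. All Mid libraries were below all Pre libraries, as was so for 7.31% of all clusters. The mean fell from 21.95 ± 4.19 to 12.01 ± 1.28 CPM (SD, n = 4 and 8), a fitted log2 fold change of -0.87 (SE 0.14, edgeR FDR 3.71e-05). After refeeding the Post libraries reached 15.5, 17.1, 21.2 and 21.7 CPM, again without overlap with Mid, as in 9.04% of all clusters (log2 fold change 0.65, SE 0.14, edgeR FDR 0.000733). Pre and Post overlapped, and their difference of -0.22 on the log2 scale had a 95% interval of -0.55 to 0.12.

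Mice fasted in the warm, which did not enter torpor, had *Insig1* levels that overlapped with those of Mid mice. HiT libraries had 10.3, 14.1, 12.4 and 14.1 CPM of *Insig1* (mean 12.7 ± 1.78). The lowest HiT library was just below the range of Mid and the 2 highest just above it, and the log2 fold change from HiT to Mid was -0.08 (95% interval -0.37 to 0.22, edgeR FDR 0.689). From Pre to HiT it fell by 0.79 on the log2 scale, with no overlap, as in 16.6% of all clusters (SE 0.16, edgeR FDR 0.000548). Dep libraries had 13.6, 13, 19.3 and 11.01 CPM, lower than Pre (log2 fold change -0.62, edgeR FDR 0.0062), with 1 library inside the range of Pre. Without the first Dep library, which held neutrophil markers, it was -0.60 (edgeR FDR 0.0188). The change from Mid to Dep was 0.25 (95% interval -0.05 to 0.54). Fed had the highest mean, with 25.1, 31.9, 20.5 and 27.7 CPM (mean 26.3 ± 4.76). From Fed to Mid *Insig1* fell by 1.13 on the log2 scale (SE 0.14, edgeR FDR 9.72e-07), and all Fed libraries were above all Mid libraries, as in 6.68% of all clusters. Fed was also above Post (0.48, edgeR FDR 0.0363), although these groups overlapped. By mean level the order was Fed, Pre, Post, Dep, HiT and Mid, and no neighbours in this order differed past the threshold.

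**Figure D1:**
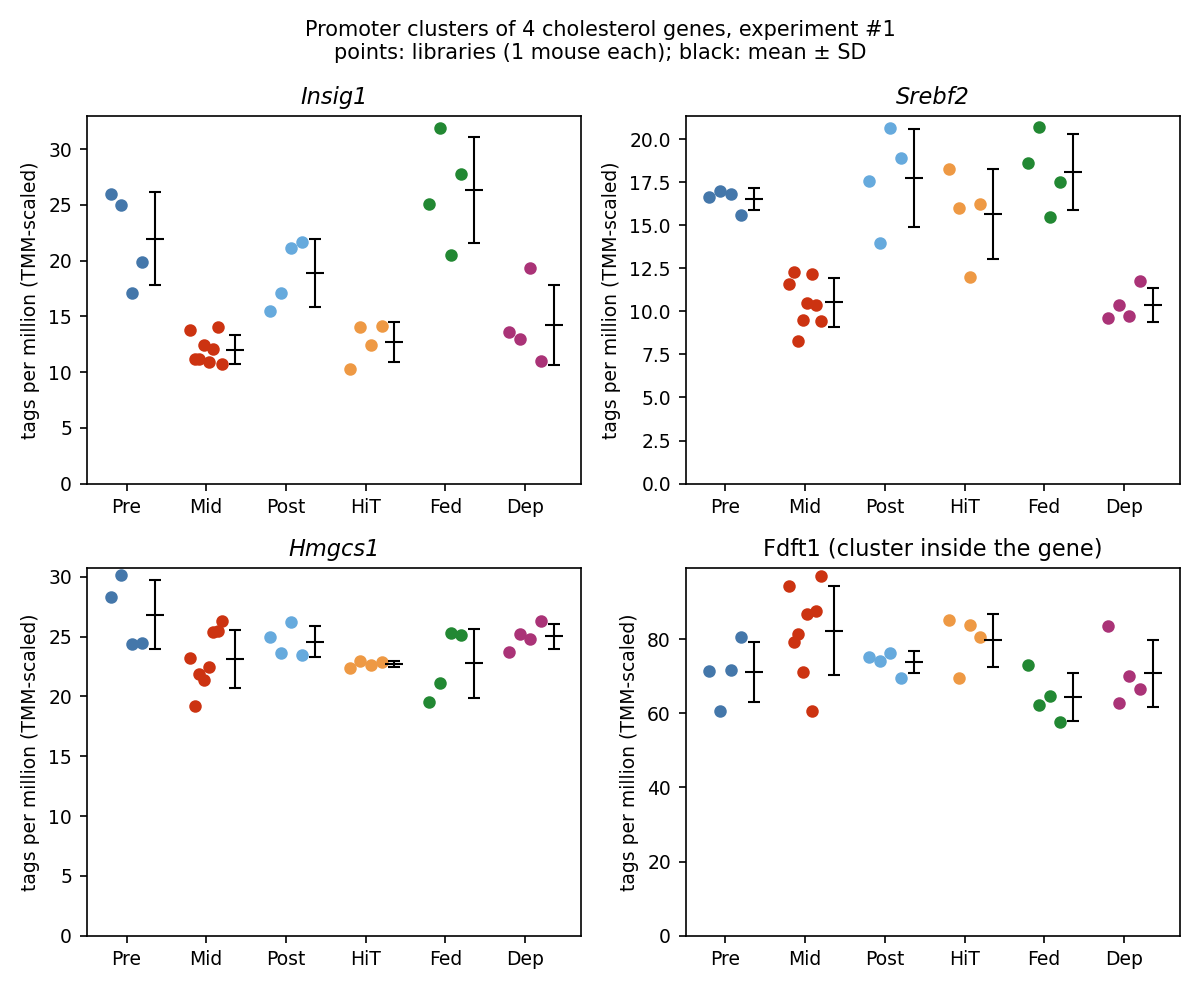
Level of each cluster in CPM after TMM scaling (y axis, from 0) in the 6 groups of experiment #1 (x axis). Points are libraries of 1 mouse each, and black marks are the mean ± SD. *Insig1* was low in Mid, HiT and Dep, *Srebf2* was low in Mid and Dep, and the groups of *Hmgcs1* and *Fdft1* mostly overlapped.

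*Srebf2* also fell from Pre to Mid, but was higher in the warm fasted mice than in Mid. The 4 Pre libraries had 16.7, 16.99, 16.8 and 15.6 CPM, and the 8 Mid libraries ranged from 8.3 to 12.3 (median 10.4). The groups did not overlap, as in 7.31% of all clusters (means 16.5 ± 0.619 and 10.53 ± 1.42 CPM). The log2 fold change was -0.65 (SE 0.11, edgeR FDR 9.86e-05). Post libraries had 17.6, 13.95, 20.7 and 18.9 CPM, all above Mid, as in 9.04% of all clusters (log2 fold change 0.76, SE 0.11, edgeR FDR 1.07e-05). From Pre to Post the change was 0.11, with a 95% interval of -0.17 to 0.38.

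HiT libraries had 18.3, 16.03, 12.01 and 16.3 CPM of *Srebf2*. Of these, 1 library lay inside the range of Mid and the others were above it. From HiT to Mid *Srebf2* fell by 0.57 on the log2 scale (SE 0.11, edgeR FDR 0.00025), and from Pre to HiT the change was -0.08 (95% interval -0.35 to 0.19). The 28 fits that each left out 1 library gave values between -0.66 and -0.46, all past the threshold. Dep libraries, at 9.62, 10.4, 9.76 and 11.8 CPM, overlapped with Mid (log2 fold change -0.02, 95% interval -0.26 to 0.22) and did not overlap with HiT, as in 14.2% of all clusters (HiT to Dep -0.59, SE 0.13, edgeR FDR 0.00167, and -0.56 with an edgeR FDR of 0.00717 without the first Dep library). Fed libraries had 18.6, 20.7, 15.5 and 17.5 CPM, all above Mid, as in 6.68% of all clusters. The log2 fold change from Fed to Mid was -0.78 (SE 0.11, edgeR FDR 8.15e-06). By mean level the order was Fed, Post, Pre, HiT, Mid and Dep, and of the neighbours in it only HiT and Mid differed past the threshold.

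Whether both genes differed in their response was tested on their ratio within a library, in which the scaling cancels. This ratio was chosen after the levels had been seen. In experiment #1 the log2 ratio of *Srebf2* to *Insig1* was 0.29 ± 0.37 in HiT, -0.09 ± 0.21 in Post and -0.20 ± 0.22 in Mid. It was -0.39 ± 0.27 in Pre, -0.43 ± 0.45 in Dep and -0.53 ± 0.13 in Fed. In experiment #2, without HiT mice, it was 0.36 ± 0.18 in Mid, 0.11 ± 0.04 in Pre and 0.01 ± 0.26 in Post. The values below are those of experiment #1. The ratio fell by 0.49 from HiT to Mid (exact permutation test, two-sided, p = 0.0162) and rose by 0.68 from Pre to HiT (exact p = 0.0571, where 4 against 4 libraries cannot go below 0.0286). Adjusted over the 10 comparisons made, none was below 0.05, the lowest being 0.0952. From HiT to Fed the ratio fell by 0.82 (exact p = 0.0286, the smallest that 4 against 4 libraries allow). From Fed to Mid it rose by 0.33 (exact permutation test, p = 0.0242, adjusted 0.0952). A p that misses the threshold does not show that both genes respond alike.

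*Hmgcs1*, the enzyme that forms HMG-CoA at the start of the mevalonate pathway, changed little. It had 28.3, 30.1, 24.4 and 24.5 CPM in Pre, and from 19.2 to 26.3 (median 22.8) in Mid. The groups overlapped, and the log2 fold change was -0.21 (SE 0.08, edgeR FDR 0.0453). This call was kept in 13 of 28 fits that left out a library and in 6 of 10 other fits, so that it stood at the threshold. In HiT it had 22.4, 23.0, 22.6 and 22.9 CPM, below all Pre libraries, as in 16.6% of all clusters (log2 fold change -0.24, edgeR FDR 0.0481). The other comparisons of Mid in experiment #1 gave log2 fold changes between 0.02 (Fed to Mid) and 0.11 (Mid to Dep), with 95% intervals that stayed within -0.14 and 0.28. The value from Fed to Mid changed sign with the scaling. Fed libraries, from mice that kept their food, had 22.8 ± 2.87 CPM of *Hmgcs1*, against 22.7 ± 0.26 in HiT. From Pre to Fed the log2 fold change was -0.24 (95% interval -0.43 to -0.04, edgeR FDR 0.098).

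The intragenic *Fdft1* cluster had the highest level of the set and, of the 4, the only positive fitted change from Pre to Mid. *Fdft1* encodes squalene synthase, which commits farnesyl diphosphate to sterols. Pre libraries had 71.4, 60.7, 71.7 and 80.6 CPM and Mid libraries from 60.6 to 97.2 (median 84.2), a log2 fold change of 0.21 (SE 0.10, edgeR FDR 0.123). Without 1 Mid library, the sixth, it was 0.28 (edgeR FDR 0.0191). Fed libraries had 73.0, 62.3, 64.6 and 57.6 CPM, and from Fed to Mid the level rose by 0.36 (SE 0.10, edgeR FDR 0.00927) with overlap between the groups. Without TMM scaling this value was 0.24 and did not pass (edgeR FDR 0.308). HiT was also above Fed, by 0.31 (edgeR FDR 0.0361).

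Read against all promoters, 3 of the 4 clusters passed the test from Pre to Mid, where 30.2% of 10776 tested clusters did. From Mid to Post 2 passed (35% of all clusters), from HiT to Mid 1 (41%) and from Fed to Mid 3 (35.2%). From Mid to Dep and from Pre to Post none passed by edgeR, where 2.03% and 1.85% of all clusters did. At an unadjusted p under 0.05, 1 member passed from Mid to Dep and 0 from Pre to Post, and DESeq2 called 0 in both. From Pre to HiT 2 passed (33.4%), from Pre to Dep 2 (25.8%), from HiT to Dep 1 (26.5%), from Post to Fed 1 (22.2%) and from HiT to Fed 2 (43.2%). The median log2 fold change from Pre to Mid was -0.43 over the 4 clusters and 0.01 over all clusters. These comparisons share libraries with each other, so they are not independent of each other.

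**Figure D2:**
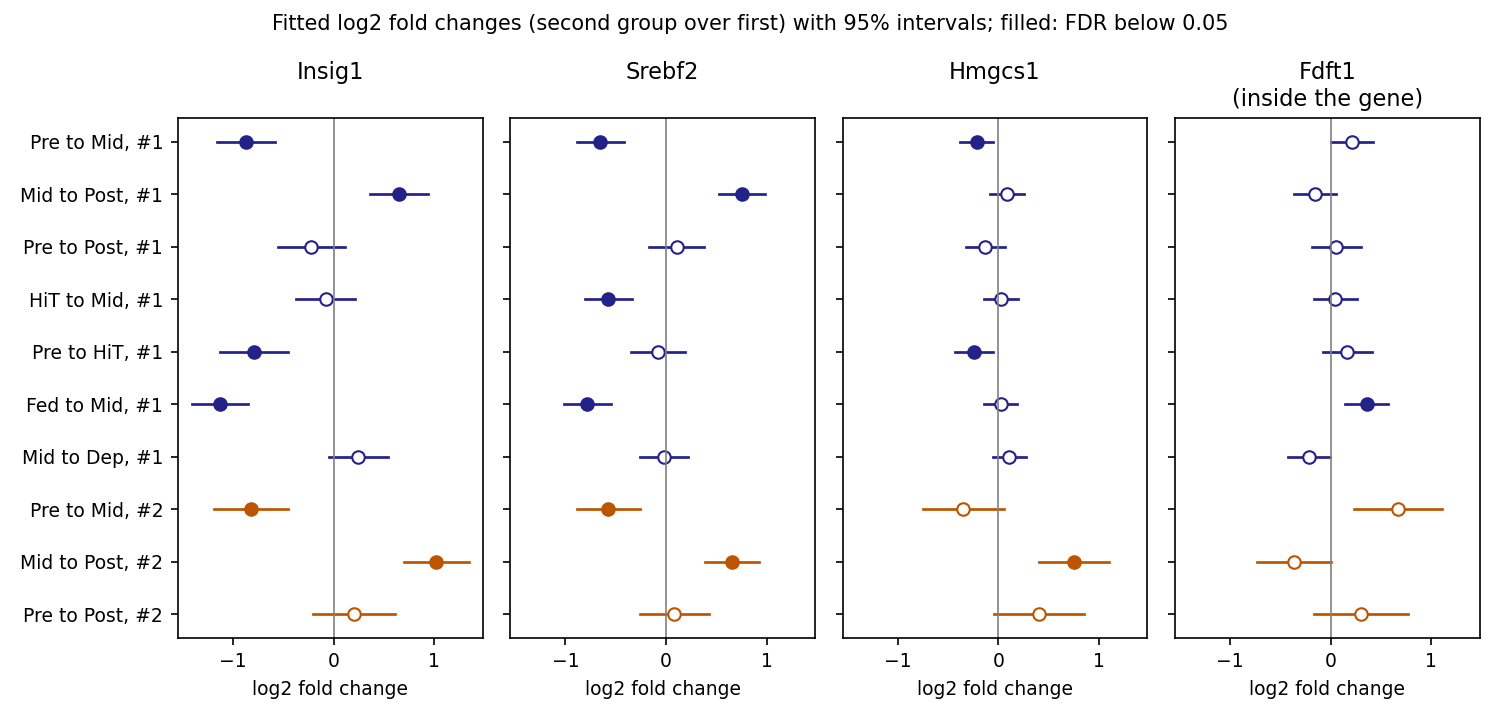
Fitted log2 fold change of each cluster (x axis, second group over the first) with its 95% interval, for 7 comparisons of experiment #1 and 3 of experiment #2 (y axis). Filled points passed an FDR of 0.05. *Insig1* was at -0.08 and *Srebf2* at -0.57 from HiT to Mid, while both fell from Pre to Mid and rose from Mid to Post in both experiments.

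Experiment #2 gave the same directions for *Insig1* and *Srebf2*. *Insig1* had 22.0 and 21.7 CPM in Pre, 10.9, 13.5, 13.9, 10.8 and 12.4 in Mid and 27.7, 18.6 and 28.7 in Post, and Mid overlapped with neither (lower than Pre in 16.3% and than Post in 11.4% of all clusters). It fell by 0.82 from Pre to Mid (SE 0.17, edgeR FDR 0.0136) and rose by 1.02 from Mid to Post (SE 0.14, edgeR FDR 0.000994). *Srebf2* had 23.3 and 23.9 CPM in Pre, 17.1, 15.2, 18.1, 13.1 and 15.7 in Mid and 23.1, 22.2 and 29.6 in Post. It fell by 0.57 (SE 0.14, edgeR FDR 0.0287) and rose by 0.66 (SE 0.12, edgeR FDR 0.00471), again without overlap (16.3% and 11.4% of all clusters).

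*Hmgcs1* passed the test after refeeding in experiment #2. Mid libraries had 17.3, 19.4, 26.2, 19.6 and 16.7 CPM and Post libraries 31.6, 29.02 and 39.7, a log2 fold change of 0.75 (SE 0.16, edgeR FDR 0.00851). The difference from the 0.08 of experiment #1 was -0.66 (95% interval -0.98 to -0.34, unadjusted p = 0.000176), but after adjustment over 10819 clusters its edgeR FDR was 0.636. The *Fdft1* cluster had 46.4 and 44.1 CPM in Pre and 87.6, 47.7, 73.1, 78.3 and 72.9 in Mid (log2 fold change 0.67, SE 0.20, edgeR FDR 0.0583), without overlap (15% of all clusters). With DESeq2 this value was 0.67 with an adjusted p of 0.0101.

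In experiment #2, 2 of the 4 clusters passed from Pre to Mid (9.74% of all clusters), 3 from Mid to Post (16.4%) and 0 from Pre to Post by edgeR and by DESeq2 (0.111%, and 0 at an unadjusted p under 0.05). Both Pre libraries and 4 Mid libraries were sequenced in lane 3, and 1 Mid and all 3 Post libraries in lane 4. With lane as a term, the change from Mid to Post sets the 3 Post libraries against the 1 Mid library of lane 4. Its log2 fold changes were 1.02 for *Insig1*, 0.67 for *Srebf2* and 1.00 for *Hmgcs1*. With 1 Mid library this fit cannot tell an effect of lane from one of refeeding. From Pre to Mid with lane as a term *Insig1* passed (-0.82, edgeR FDR 0.0291) and *Srebf2* did not (-0.57, edgeR FDR 0.0567). Without either Pre library no member passed from Pre to Mid, without the fourth or the fifth Mid library 1 did, and without the second Mid library 3 did. No cluster of the whole table differed between the experiments in either change (0%) by edgeR, and DESeq2 called 0 members. At an unadjusted p under 0.05, 1 member differed in each change.

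**Figure D3:**
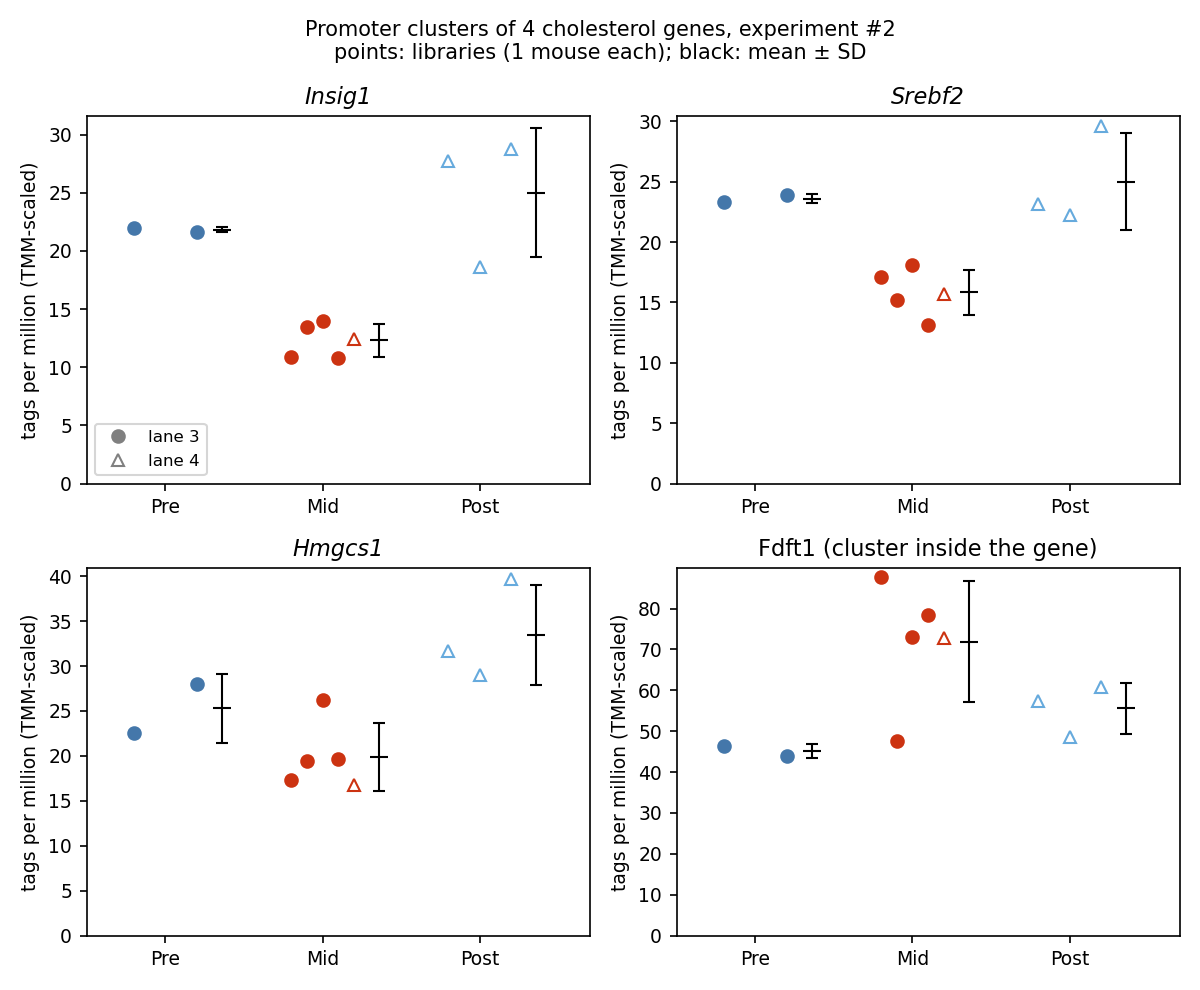
Level of each cluster in CPM after TMM scaling (y axis, from 0) in the 3 groups of experiment #2 (x axis). Filled circles are libraries of lane 3, open triangles those of lane 4, and black marks the mean ± SD. *Insig1* and *Srebf2* were lower in Mid than in Pre and Post in all libraries.

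The wider pathway was described with 40 other genes of cholesterol metabolism, chosen by function, of which 29 had a cluster. *Sqle*, squalene epoxidase, was among those without one. From Pre to Mid 6 of the 29 were higher, 10 lower and 13 did not pass, so that 55.2% passed where 30.2% of all clusters did. From Mid to Post 8 were higher and 7 lower (51.7% against 35% of all clusters), from HiT to Mid 2 and 11 (44.8% against 41%), and from Fed to Mid 4 and 8 (41.4% against 35.2%). The last 2 shares were near those of all clusters, and none of the 4 was tested against them. The median log2 fold change from Pre to Mid was -0.07 over the 29 genes. The highest peaks of the genes named from these lists lay within 42 bp of a protein-coding 5′ end.

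Of 5 mevalonate and isoprenoid enzymes with a cluster, *Hmgcs1* included, 4 fell from Pre to Mid, where 30.2% of all clusters passed in either direction. From HiT to Mid *Hmgcs1*, *Mvd* and *Pmvk* had log2 fold changes of 0.03, 0.13 and -0.07 and did not pass. *Mvd*, which forms isopentenyl diphosphate, had 8.23 ± 0.705 CPM in Pre, 4.58 ± 1.05 in Mid and 4.18 ± 0.349 in HiT (SD, n = 4, 8 and 4). All its HiT libraries were below all Pre libraries, as in 16.6% of all clusters. *Pmvk*, phosphomevalonate kinase, had 12.7 ± 2.75, 7.46 ± 1.61 and 7.82 ± 1.02 CPM in the same groups. Both fell from Pre to HiT, by 0.97 and 0.70 on the log2 scale (edgeR FDR 0.000178 and 0.00969).

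Of 6 sterol enzymes with a cluster, *Fdft1* included, 4 fell from Pre to Mid and 3 from HiT to Mid, where 41% of all clusters passed. *Msmo1*, a methylsterol oxidase, had 11.5 ± 1.76 CPM in Pre, 4.35 ± 1.06 in Mid and 11.5 ± 2.06 in Post, a log2 fold change of -1.41 and then 1.40 (edgeR FDR 2.66e-07 and 1.16e-07). Its HiT libraries, 7.24 ± 0.706 CPM, lay between, and it passed both from Pre to HiT (-0.67) and from HiT to Mid (-0.74). *Sc5d*, a sterol desaturase, had 7.04 ± 1.63 CPM in Pre, 4.3 ± 0.261 in Mid and 4.49 ± 0.161 in HiT, and did not pass from HiT to Mid (-0.06, 95% interval -0.31 to 0.18).

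Among the regulators, *Insig2*, the other INSIG gene, and *Scap*, the escort of SREBP, did not pass from Pre to Mid. *Insig2* had 51.2 ± 1.79 CPM in Pre and 48.6 ± 3.65 in Mid, a log2 fold change of -0.07 with a 95% interval of -0.23 to 0.08, where *Insig1* fell by 0.87. *Scap* had a log2 fold change of -0.06 (95% interval -0.39 to 0.27). *Srebf1*, whose products act mainly on fatty acid genes, had 2 clusters, of which only the one with the higher mean level in experiment #1 was followed. This cluster fell by 0.27 from Pre to Mid (edgeR FDR 0.0395) and did not pass from Mid to Post (0.05). Its Mid and HiT means were both 10.54 CPM.

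Uptake and transport genes moved in both directions. Of 9 with a cluster, 3 rose and 2 fell from Pre to Mid, where 30.2% of all clusters passed in either direction. From HiT to Mid 2 of the 9 rose and 6 fell, where 41% of all clusters passed. *Stard4*, a sterol carrier, had 7.6 ± 0.829 CPM in Pre, 5.22 ± 0.696 in Mid, 8.27 ± 0.833 in Post and 7.68 ± 1.08 in HiT. Its log2 fold change was -0.54 from Pre to Mid (edgeR FDR 0.000695), -0.56 from HiT to Mid (edgeR FDR 0.000326) and 0.02 from Pre to HiT (95% interval -0.25 to 0.29).

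*Mylip*, a ubiquitin ligase that targets lipoprotein receptors, rose from 26.2 ± 2.77 CPM in Pre to 66.1 ± 24.4 in Mid (log2 fold change 1.33, edgeR FDR 7.77e-05). *Npc1*, which exports cholesterol from lysosomes, rose from 20.7 ± 2.91 to 45.5 ± 9.07 CPM (1.14, edgeR FDR 1.66e-06). *Vldlr*, the VLDL receptor, rose by 0.52, from 104 ± 5.09 to 148 ± 16.8 CPM. It had 133 ± 9.66 CPM in Fed, 134 ± 9.41 in Dep and 90.4 ± 6.39 in HiT. *Nceh1*, a hydrolase of cholesterol esters, rose by 0.72 and was also high in HiT (61.9 ± 2.9 CPM against 62.8 ± 7.3 in Mid). *Soat1*, which esterifies cholesterol and is abundant in macrophages, was high in HiT, at 7.24 to 13.5 CPM against 3.77 to 5.06 in Mid (log2 fold change from HiT to Mid -1.35, edgeR FDR 3.17e-08).

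In experiment #2, *Mvd*, *Msmo1* and *Sc5d* fell by 0.84, 0.85 and 0.75 from Pre to Mid (edgeR FDR 0.0163, 0.0299 and 0.0116) and rose by 1.06, 1.23 and 0.95 from Mid to Post. *Npc1* and *Mylip* rose by 1.16 and 1.14 (edgeR FDR 0.00474 and 0.0338). *Stard4* and *Pmvk* did not pass (-0.24 and -0.53).

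**Figure D4:**
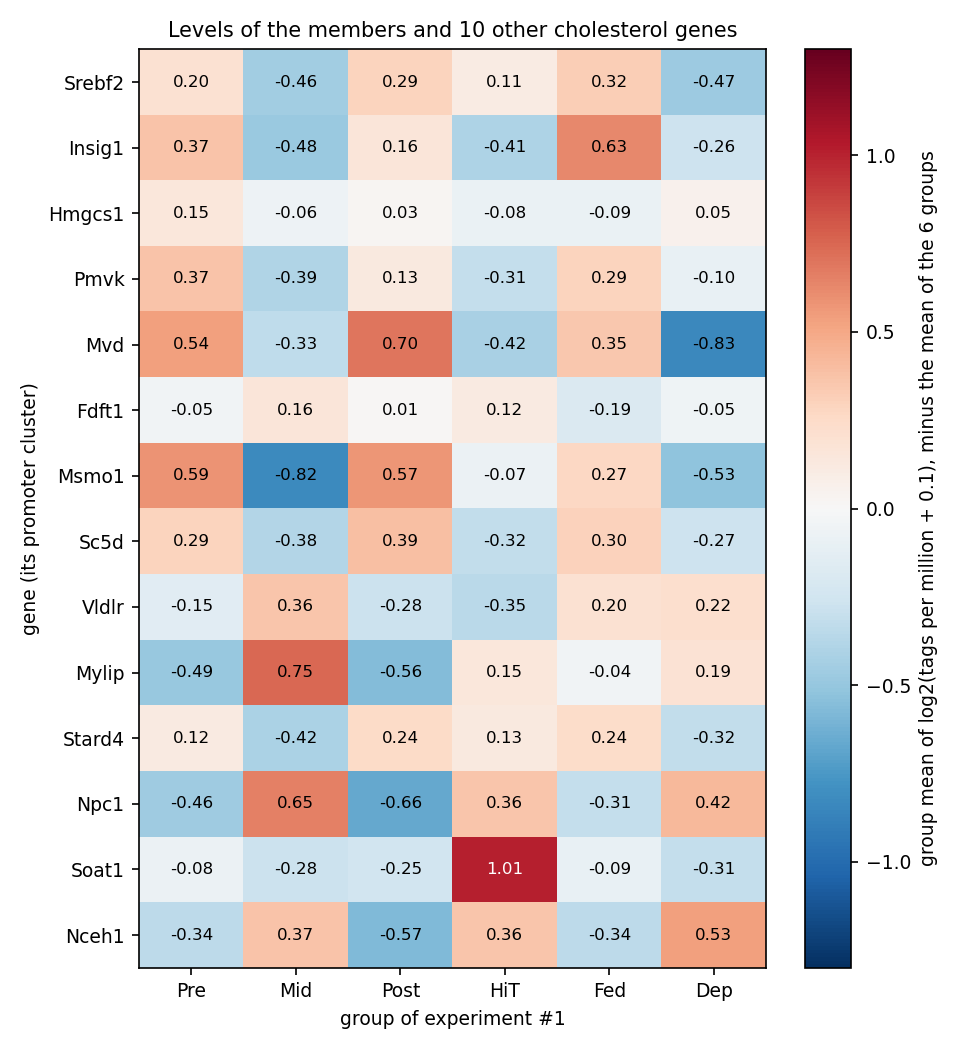
Group mean of log2(CPM + 0.1) minus the mean of the 6 groups (color and number) for the 4 members and 10 other genes of cholesterol metabolism (y axis) in the groups of experiment #1 (x axis). *Srebf2* was at -0.46 in Mid, -0.47 in Dep and 0.11 in HiT, and *Insig1* at -0.48, -0.26 and -0.41.

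Markers of other cell types were counted beside these groups. The summed level of 5 macrophage markers with a cluster was 138 to 310 CPM in HiT, against 49.1 to 72.6 in Mid and 44.1 to 70.1 in Pre, and 5 of 5 were lower from HiT to Mid. It was 40.4 to 93.6 CPM in Dep and 48.8 to 83.8 in Fed. The summed level of 4 red blood cell markers was 2813 to 13747 CPM in Fed against 2989 to 4237 in Mid. Its highest value was in the second Fed library, and 4 of 4 markers were lower from Fed to Mid. The summed level of Schwann cell markers reached 753 CPM in 1 Pre library, against 86.0 to 201 in Mid. That of adipocyte markers was 338 to 1090 CPM in Pre, 160 to 1545 in Mid and 316 to 1917 in Dep. The highest was in the third Dep library, whose *Insig1* level, 19.3 CPM, lay inside the range of Pre. Pre libraries had the same order by adipocyte markers and by *Insig1*, and Post and Dep libraries nearly so. In Mid, HiT and Fed the orders differed more. The highest *Insig1* level of Mid was in the seventh library, with 165 CPM of adipocyte markers. From Pre to HiT 5 of 5 macrophage markers were higher, and 1 of 6 slow muscle, 2 of 6 fast muscle, 3 of 4 red blood cell, 1 of 7 adipocyte, 1 of 6 tendon and 1 of 5 endothelial markers were lower. From HiT to Mid 2 of 6 slow and 2 of 6 fast muscle markers were higher and 1 of 6 tendon markers was lower. From Fed to Mid 1 of 7 adipocyte and 1 of 6 tendon markers were lower, and of 5 endothelial markers 1 was higher and 3 were lower. The summed level of 4 neutrophil markers was 133 CPM in the first Dep library and 1.56 CPM or less in the other 27 libraries of experiment #1, and 4 of 4 were higher in Dep than in Pre, Mid and HiT. The fits without that library were added after seeing the data, and *Srebf2* from Pre to Dep was -0.67 with it and -0.64 without it (edgeR FDR 0.000538 and 0.00271). The part of these cells in the results above was otherwise not tested. From Pre to Mid 1 of 5 macrophage markers was higher, 1 of 7 adipocyte, 1 of 6 tendon and 1 of 5 Schwann cell markers were lower, and of 5 endothelial markers 1 was higher and 2 were lower. *Srebf2* and *Stard4* were higher in HiT than in Mid beside the macrophage markers, while *Insig1* did not pass that test.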

How the data were processed

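Soleus RNA of 38 mice was measured by nAnT-iCAGE. Per the study's methods reads were trimmed by the authors, aligned with BWA and HISAT2 (genome build mm10), and start sites were clustered by PromoterPipeline. They deposited tag counts per cluster and library without normalization, and the same values as TPM, that is, relative to the library total. Clusters were assigned by their highest peak to 5′ ends of GENCODE M21 within 500 bp on the same strand. Counts were tested with the quasi-likelihood F test of edgeR 4.0.16 in R 4.3.3 after TMM scaling. The fit held the 28 libraries of experiment #1 (10776 clusters with any tag), or the 10 of experiment #2 (10816), with group as the only term. The difference between experiments was tested in 1 fit of all 38 libraries over 10819 clusters. P-values were adjusted by Benjamini-Hochberg across the whole table (FDR, threshold 0.05), and intervals are 95%. P-values measure the spread between mice. No pair of libraries within a group agreed within sampling noise. All per-sample columns were used.

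The genes and gene lists were chosen with earlier results of these data known. Of the other pathway genes, those named passed the test in a main comparison of Mid with an absolute log2 fold change of 0.5 or more, 12 at most by size, and *Sqle*, *Srebf1*, *Scap* and *Insig2* were named whatever their values. Some genes that this rule names are not reported here. Motifs were searched in RefSeq promoters of GRCm38.p6 without chromosome 18. Results were recomputed with DESeq2 1.42.0, edgeR's likelihood ratio test, limma 3.58.1 on log2(TPM + 0.1), library size without TMM, upper-quartile and RLE scaling, filterByExpr, all 38 libraries in the fit or just the pair of groups in question, the replicate number as a block, sequencing lane, a window of 100 bp, and each library left out in turn. Scripts were tested on simulated counts.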

Additional observations from a re-analysis of the deposited data

Results flagged for a closer look

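No library of the 4 clusters stood apart by Dixon's criterion in the 28 combinations of cluster and group with 4 or more libraries, where chance gives about 1 in 20. No member differed between the experiments in its change from Pre to Mid or from Mid to Post after adjustment (0 of 8 tests by edgeR, of which 2 had an unadjusted p under 0.05).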

How the results depend on the processing

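The calls of *Insig1* and *Srebf2* in experiment #1 from Pre to Mid, Mid to Post and Fed to Mid, and of *Srebf2* from HiT to Mid, held under every alternative run. Of 408 recomputed log2 fold changes of the members, 377 kept their direction and call, 10 lost and 6 gained the call and 15 changed sign, none of these last being called. The fit of all 38 libraries pooled both experiments, with experiment as a term, and its 1 set of values is counted under each. Counts of members called moved most in experiment #2. From Pre to Mid, 4 were called with all 38 libraries and 1 with lane as a term, in place of 2, and 0 to 3 when libraries were left out. From Mid to Post, 3 or 4 were called when libraries were left out, where the main fit called 3. With lane as a term 1 Mid library is left to set against Post, so that count is not given. In experiment #1, from Pre to Mid 2 members were called in place of 3 with the likelihood ratio test, without TMM, with just the groups compared and with TPM, and 4 with all 38 libraries. From Mid to Post 3 were called with all 38 libraries in place of 2, and from Fed to Mid 2 in place of 3 without TMM and with TPM. Leaving out a library gave 2 to 4 calls from Pre to Mid, 2 from Mid to Post, 1 from HiT to Mid, 3 from Fed to Mid and 0 from Mid to Dep and Pre to Post. The causes were not tested, except that fewer samples enter a fit without a library. A window of 100 bp leaves out *Fdft1*, which lowers the count from Fed to Mid to 2 by construction.

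The replicate numbers were used as a block, although they share only a number, since correlations of same-numbered libraries ranged from -0.40 to 0.44. With the block 3, 2, 1, 3, 0 and 0 members were called from Pre to Mid, Mid to Post, HiT to Mid, Fed to Mid, Mid to Dep and Pre to Post, as without it, and 3147, 3709, 3971, 2841, 407 and 201 of all clusters. In experiment #1, Mid libraries whose number occurs in no other group add nothing to the fold changes with the block. Changes from Pre to Mid and Mid to Post in experiment #2 could not be fitted with a block, since these groups share no numbers.

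Signs changed in uncalled values close to 0. For *Hmgcs1* from Fed to Mid, they were -0.12 without TMM, -0.026 with upper-quartile scaling, -0.065 with all libraries, -0.089 with the block and -0.084 with TPM, and from HiT to Mid -0.051 with all libraries and -0.085 with the block. *Insig1* from HiT to Mid was 0.043 without TMM and 0.041 with TPM. *Srebf2* from Mid to Dep was 0.0012 with the block. From Pre to Post, *Fdft1* was -0.0094 without TMM and -0.0058 with TPM, and *Hmgcs1* was 0.11 with all libraries. Set against experiment #2, the pooled fit of all libraries gave -0.043 for *Insig1* from Pre to Post. In experiment #2 the block gave -0.055 for *Srebf2* from Pre to Post. Leaving out a library changed signs in these ranges. *Fdft1* ranged from -0.015 to 0.12 from HiT to Mid and from -0.014 to 0.12 from Pre to Post. *Insig1* ranged from -0.14 to 0.0068 from HiT to Mid, *Hmgcs1* from -0.042 to 0.087 from Fed to Mid and *Srebf2* from -0.093 to 0.018 from Mid to Dep. In experiment #2 *Srebf2* ranged from -0.048 to 0.16 from Pre to Post. The difference between experiments in the change from Pre to Mid ranged from -0.021 to 0.29 for *Hmgcs1* and from -0.15 to 0.036 for *Insig1*.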

Other observations

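Genes outside the list were ranked by how closely they followed the members. The levels of the 4 clusters, each centred and scaled, were averaged over the 28 libraries of experiment #1, and Pearson's r with this mean was computed for 9587 annotated clusters, as a description. The points share the 6 groups, so r can reflect differences between groups as well as within them, and these were not separated. *Acly*, ATP citrate lyase, which makes cytosolic acetyl-CoA from citrate, came first with r = 0.84, and had r = 0.84 over the 10 libraries of experiment #2. It was followed by *Reep5* (0.83 and 0.42), *Agpat2*, an acyltransferase of glycerolipid synthesis (0.81 and 0.79), *Slc46a3* (0.80 and 0.48) and the sterol enzyme *Msmo1* (0.80 and 0.87). *Slc25a10*, the mitochondrial dicarboxylate carrier (0.79 and 0.72), *G3bp2* (0.79 and 0.54), *Ptges*, a prostaglandin E synthase (0.79 and 0.82), *Gm10033* (0.78 and 0.55) and *Sc5d* (0.78 and 0.79) completed the 10 genes. Without the intragenic *Fdft1* cluster, a setting chosen after seeing the data, *Acly* again came first (0.90 and 0.95), followed by *Msmo1* (0.89 and 0.97), *Slc25a10* (0.87 and 0.85) and *Sc5d* (0.86 and 0.91).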
